A study of Bos taurus with 20 samples.

Results

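Granulosa cells (GC) and cumulus cells (CC) descend from the same cells of the growing bovine follicle and separate when the fluid-filled antrum forms. GC line the follicle wall next to the basal lamina that divides them from the theca (TH), while CC remain around the oocyte and exchange small molecules with it through gap junctions. GC are known for estradiol and inhibin production under follicle-stimulating hormone, and CC for feeding the oocyte with pyruvate, lactate, amino acids and cholesterol, since the oocyte itself makes little use of glucose. This comparison asked which genes differed in expression between the 2 cell types before any in vitro maturation, and it used 8 of the 20 arrays of the series, chosen by their sample titles (4 GC, replicates 1 to 4, and 4 CC before maturation, replicates 1 to 4).

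The cells came from antral follicles of 3 to 6 mm in ovaries of slaughtered cattle (Bos taurus). Follicles were punctured, the cumulus–oocyte complexes were set apart from GC, and both cell types are labelled immature; no treatment, genotype or age is stated. The fit of the model also used 4 arrays each of TH and oocytes. The labels call the 4 samples of a cell type replicates and the study calls them biological replicates. Neither says whether a sample pooled animals, so p-values measure the spread between samples. For each gene that spread was 1 estimate pooled over the 16 arrays of GC, CC, TH and oocytes. The SE and p-value of a gene can therefore be smaller or larger than GC and CC arrays alone would give. Each sample was hybridized in 1 colour to a bovine Agilent 60K array from 200 ng of total RNA. In bulk samples, fewer cells of a type and less RNA per cell cannot be told apart.

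Values are the processed intensity of a gene on a log2 scale, relative to the 75th percentile of its own array (the log2 level below), so that a difference of 1 is a 2-fold difference. The share of the 61325 probes that rose clearly above background was 56.7% on the lowest of the 8 arrays and 62.8% on the highest, and no spot was saturated. Across 12737 genes the arrays correlated at 0.969 to 0.985 within GC, at 0.985 to 0.992 within CC and at 0.95 to 0.975 between them. Replicates 1 and 2 of both cell types lay on 1 slide and replicates 3 and 4 on another, so that every comparison could also be made within each slide. Of the granulosa lineage markers, FSHR, CYP19A1, AMH, INHBA, INHA, FOXL2, SERPINE2 and HSD17B1 were well above background on all 4 arrays of both cell types.

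Probes differ in how bright they are for the same amount of RNA, and the pair of probes of a gene is not always independent, which is seen in the sequences of the probes for the genes that were given as markers of this comparison (F2, MIF and GSTA5). The first 30 bases of each 60-base probe are shown 5′ to 3′, and capitals mark bases shared by both probes of the gene.
F2 probe 1: cactgcaaaatctCAGAGGCCAATCCAGTG
F2 probe 2: CAGAGGCCAATCCAGTGAATGAATTATTTT
MIF probe 1: acATCAACTTCTGCGACATGAACGCGGCCA
MIF probe 2: ATCAACTTCTGCGACATGAACGCGGCCAAC
GSTA5 probe 1: GACCCTGGGTGTTGAGAGACTAATAAACTA
GSTA5 probe 2: atctaagtgtaGACCCTGGGTGTTGAGAGA
The probes shared 47 bases for F2, 58 for MIF and 49 for GSTA5, so their likeness (CC minus GC of 2.66 and 2.68 for F2, 2.48 and 2.47 for MIF, and -1.88 and -1.89 for GSTA5) came from almost the same piece of RNA. In contrast, probes of SLC2A3 and NDUFA4L2, both among the 12 largest rises in CC, shared no run of 15 or more bases.
SLC2A3 probe 1: cgctcagaggatcccaaggctggggttagt
SLC2A3 probe 2: aaatggaaaagccttagtgcattgccttgc
NDUFA4L2 probe 1: tccttgcagtttccactgactacaagaaac
NDUFA4L2 probe 2: ctcccctacttccctcggtccccagggatc
The first probe of SLC2A3 had a mean log2 level of -4.25 in GC and 0.62 in CC, and the second 2.44 and 6.54, so that both placed CC higher, by 4.87 and 4.09. The first probe of NDUFA4L2 was at -6.7 in GC, above background on 0 GC arrays, and at -3.23 in CC. The second was at 0.33 and 5.32. Their differences were 3.47 and 4.99, and the value of NDUFA4L2 below is the median over both probes, so its size is limited by the dim probe. The files give, on UMD 3.1 (bosTau6), the span of the transcript each probe was made for, and not the exon or UTR the probe lies in. These spans were chr15:77530565-77544935 for F2, chr17:73273379-73274171 for MIF, chr23:24894759-24916117 for GSTA5, chr5:101896622-101909500 for SLC2A3 and chr5:56537021-56539323 for NDUFA4L2.

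Of 22550 genes tested, 2229 differed between GC and CC at an adjusted p below 0.05 (limma, Benjamini–Hochberg), which is 9.88% of them. CC were higher for 1190 genes (5.28%) and GC for 1039 (4.61%), and the difference was at least 2-fold for 753 and 654 of these. With the spread taken from the GC and CC arrays alone, 1984 genes were called. Of the genes called, 984 higher in CC and 768 higher in GC were well above background on at least 3 arrays of both cell types, as the plot of gene levels shows. The arrays of GC and CC did not overlap for 5857 genes (26.0%), of which 1974 were among those called. The balance between the directions depended on how the arrays were scaled and their background treated. With a percentile over probes above background on all arrays, 1058 genes were higher in CC and 1400 in GC, and relative to the array median 1193 and 698. The deposited log2 table, which is centred on the median and keeps the background, gave 1716 and 629. All 2229 called genes had the same direction on both slides. They were called on these same arrays, and the lack of overlap in 1974 of them fixes their direction on each slide. The agreement between slides is therefore no independent check.

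**Figure D1:**
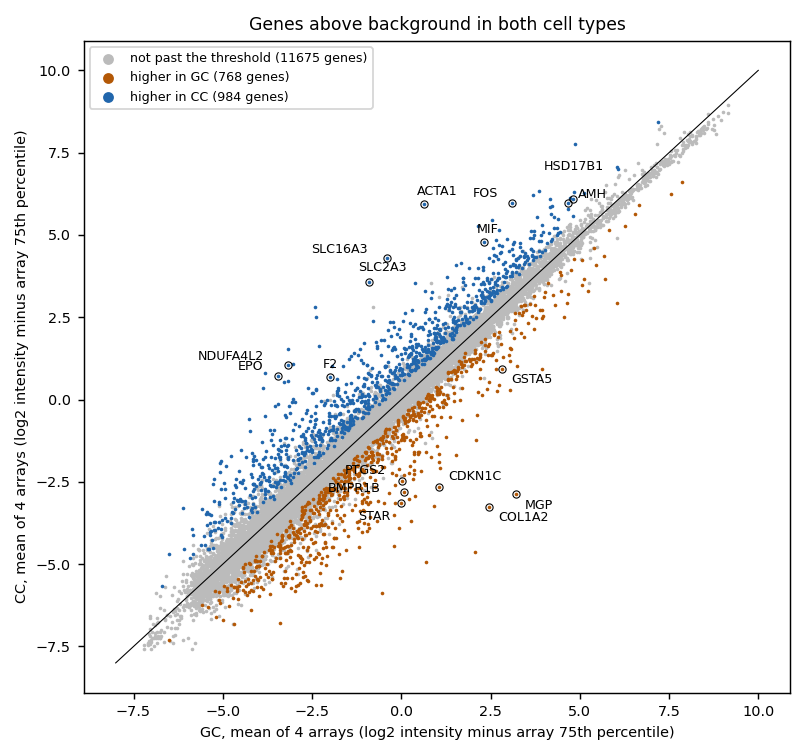
Mean log2 level of each gene in GC (x axis) and CC (y axis) over 4 arrays each, in log2 units relative to the 75th percentile of the array, for the 13427 genes well above background on at least 3 arrays of both cell types. Blue points (984) were higher in CC, brown points (768) were higher in GC, grey points (11675) did not pass the threshold, and the line marks equal levels. SLC16A3 and SLC2A3 lie far above the line and MGP and COL1A2 far below it.

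The genes given as markers of this comparison differed in both directions. F2, which encodes prothrombin, the precursor of the clotting protease thrombin, had log2 levels of -2.19, -1.58, -2.24 and -1.93 in GC and 0.81, 0.56, 0.76 and 0.60 in CC (replicates 1 to 4). No CC array came near the GC range, and the levels in TH (-3.06) and in the oocyte (-3.48) lay below both. CC were higher by 2.67 ± 0.19 (SE), 6.36-fold, with an adjusted p of 8.65e-07 (limma). MIF, macrophage migration inhibitory factor, a cytokine, was at 2.46, 1.75, 1.78 and 3.30 in GC and at 4.09, 5.06, 4.66 and 5.39 in CC, a difference of 2.48 ± 0.40 (adjusted p = 0.000943).

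HSD17B1, the enzyme that turns estrone into estradiol, was at 4.93, 4.87, 3.99 and 5.42 in GC and at 5.78, 6.81, 5.85 and 5.89 in CC. AMH, the anti-Müllerian hormone of growing follicles, was at 4.79, 4.29, 4.14 and 5.53 in GC and at 5.93, 6.05, 5.78 and 6.11 in CC. The groups did not overlap for either gene, and GC replicate 4 was the GC array closest to CC in both. CC were higher by 1.28 ± 0.35 for HSD17B1 (adjusted p = 0.0284) and by 1.28 ± 0.31 for AMH (adjusted p = 0.0148). The call of AMH was lost without GC replicate 3 (1.10, adjusted p = 0.056), and that of HSD17B1 without GC replicate 2, GC replicate 3, CC replicate 2 or CC replicate 4 (1.01 to 1.34, adjusted p from 0.051 to 0.10). GSTA5, a glutathione transferase of the alpha class, went the other way, at 3.24, 1.68, 2.93 and 3.40 in GC and 1.05, 1.10, 0.40 and 1.18 in CC, a difference (CC minus GC) of -1.88 ± 0.46 (adjusted p = 0.0172). That call was lost without GC replicate 1 or CC replicate 3 (adjusted p = 0.05 and 0.054). Binding of RNA from other alpha-class genes to these probes was not tested, so the value of GSTA5 is uncertain in that respect.

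**Figure D2:**
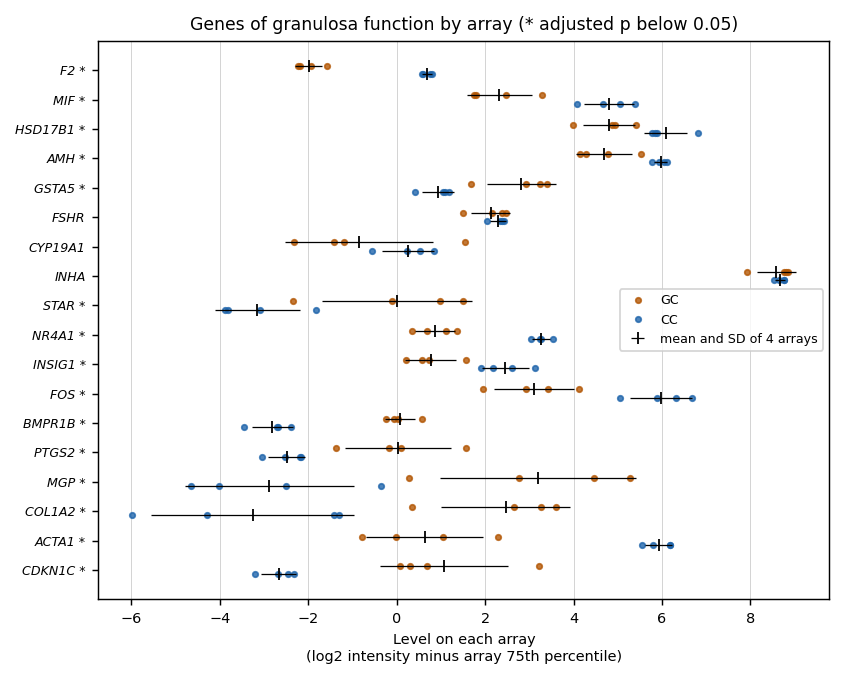
Log2 level of 18 genes on each of 4 GC (brown) and 4 CC (blue) arrays, with black bars for the mean and SD of the 4 arrays, in log2 units relative to the array's 75th percentile; asterisks mark an adjusted p below 0.05. FSHR, CYP19A1 and INHA overlap between the cell types, while F2 and ACTA1 lie apart to the right in CC and MGP and BMPR1B to the left.

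Genes of glucose use differed in 1 direction. In glycolysis, glucose enters through SLC2A transporters, is split to pyruvate by a chain of enzymes, and leaves as lactate made by LDHA and carried out by SLC16A3. Of 27 genes of this route on the array, 19 (70.4%) were higher in CC and 0 in GC (1 in GC under 6 of the alternatives, namely quantile normalization, normexp background correction, the deposited table, the brightest probe, only GC and CC arrays, and array weights), against 5.28% and 4.61% of all genes, and the median difference of the list was 1.24 against -0.155 for all genes. In all 19 the arrays of the cell types did not overlap, which also held for 1974 of the 2229 genes called in either direction. CC had the highest mean of the 4 cell types in all 19. Of all genes called higher in CC, 12.9% had a TH mean above both GC and CC, and 31.5% an oocyte mean above CC.

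SLC2A3, the glucose transporter of high affinity, was at -0.20, -1.02, -1.61 and -0.78 in GC and at 3.90, 3.71, 3.45 and 3.26 in CC. SLC16A3, which exports lactate, was at -0.07, -1.03, -1.14 and 0.62 in GC and at 3.99, 4.61, 4.14 and 4.47 in CC. Each of the 4 CC arrays was thus more than 3 log2 units above the highest GC array for both transporters. The differences were 4.48 ± 0.31 (22.4-fold, adjusted p = 7.48e-07) and 4.71 ± 0.34 (26.1-fold, adjusted p = 1.29e-06).

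Of the enzymes at control points, hexokinase HK2 was higher in CC by 2.38 ± 0.23, the phosphofructokinases PFKP by 2.74 ± 0.40 and PFKL by 2.31 ± 0.34, and PFKFB3, which makes the activator of phosphofructokinase, by 2.48 ± 0.26. LDHA was at 3.43, 3.57, 3.09 and 4.61 in GC and at 5.93, 6.45, 6.19 and 6.34 in CC, higher by 2.55 ± 0.27 (adjusted p = 2.84e-05), and PDK1, the kinase that closes the entry of pyruvate into the mitochondrion, by 2.29 ± 0.24. Of the enzymes between them, GPI, ALDOA, ALDOC, TPI1, PGK1, PGAM1, ENO1 and PKM were higher by 1.07 to 1.91. SLC2A1 and HK1 differed by 0.91 and 1.10. Those not called were LDHB, the lactate dehydrogenase subunit of oxidative tissues, PFKM, SLC16A1 (0.69, adjusted p = 0.0528), SLC16A7, ENO2, SLC2A4, PFKFB4 and GAPDH, whose probes stayed at background on all 8 arrays. By slide the median of the list was 1.42 on the first and 1.14 on the second, where 3 and 7 genes were called from 2 arrays a group.

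Several of the largest single differences were in genes that the hypoxia-inducible factors are known to switch on. The 12 genes with the largest rise in CC of those measured in both cell types (above background on at least 3 arrays of each, with no overlap) included NDUFA4L2, EPO and ANKRD37. NDUFA4L2 lowers mitochondrial complex I activity, and EPO is the erythropoietin hormone. SLC2A3 and SLC16A3, described above with glycolysis, were also among these 12. NDUFA4L2 was at -2.77, -3.75, -3.41 and -2.80 in GC and at 0.51, 1.64, 0.80 and 1.24 in CC (4.23 ± 0.34, adjusted p = 2.68e-06). EPO was at -3.36, -2.78, -4.42 and -3.27 in GC and at 0.43, 1.12, 0.41 and 0.93 in CC (4.19 ± 0.53, adjusted p = 0.000157). ANKRD37 was higher by 3.72 ± 0.20, with all CC arrays between 0.25 and 0.87 and all GC arrays between -3.64 and -2.88.

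A list of 36 genes of the hypoxia response was then drawn up from general knowledge, after these values had been seen, so its counts are a description and no test. Of the 36, 61.1% were called, against 9.88% of all genes, and 2 (PDK1 and PFKFB4) are also in the glycolysis list. Higher in CC were 20, with a median difference of 0.79 over the list. Higher in GC were 2 (EGLN1, an oxygen-sensing hydroxylase, by -0.93 as CC minus GC, and LOX, a collagen cross-linking oxidase, by -2.37). The 2 became 0 without GC replicate 3 or CC replicate 1, and 1 without GC replicate 2, CC replicate 2, CC replicate 3 or CC replicate 4. VEGFA, the vessel growth factor, was at -2.84, -3.21, -3.76 and -3.18 in GC and at -0.46, -0.28, -0.54 and -0.58 in CC. CA9, a carbonic anhydrase at the cell surface, was between -1.94 and -1.33 in GC and between 0.88 and 1.18 in CC. Neither gene overlapped between the cell types, with differences of 2.78 and 2.65. BNIP3, which acts in mitochondrial clearance, differed by 2.23, the collagen prolyl hydroxylases P4HA1 and P4HA2 by 1.93 and 1.45, and DDIT4, an inhibitor of mTOR signalling, by 1.68. EGLN3 was well above background on 4 CC arrays and on no GC array (at least 3.41-fold higher in CC).

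HIF1A, the oxygen-regulated subunit itself, was higher in CC by 0.76, while EPAS1, ARNT and VHL did not pass the threshold. NDRG1, BNIP3L and STC2 were not called either. Nor was ADM, another known target, which here is 4 probes that carry a microRNA name on the array and were matched to ADM by accession (4.64 in GC and 3.84 in CC, adjusted p = 0.0626). Without GC replicates 2 and 3, whose theca marker signal was highest, 16 of the list and 14 of the glycolysis genes were called higher in CC, and without CC replicates 1 and 4, whose oocyte marker signal was highest, 18 and 20.

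**Figure D3:**
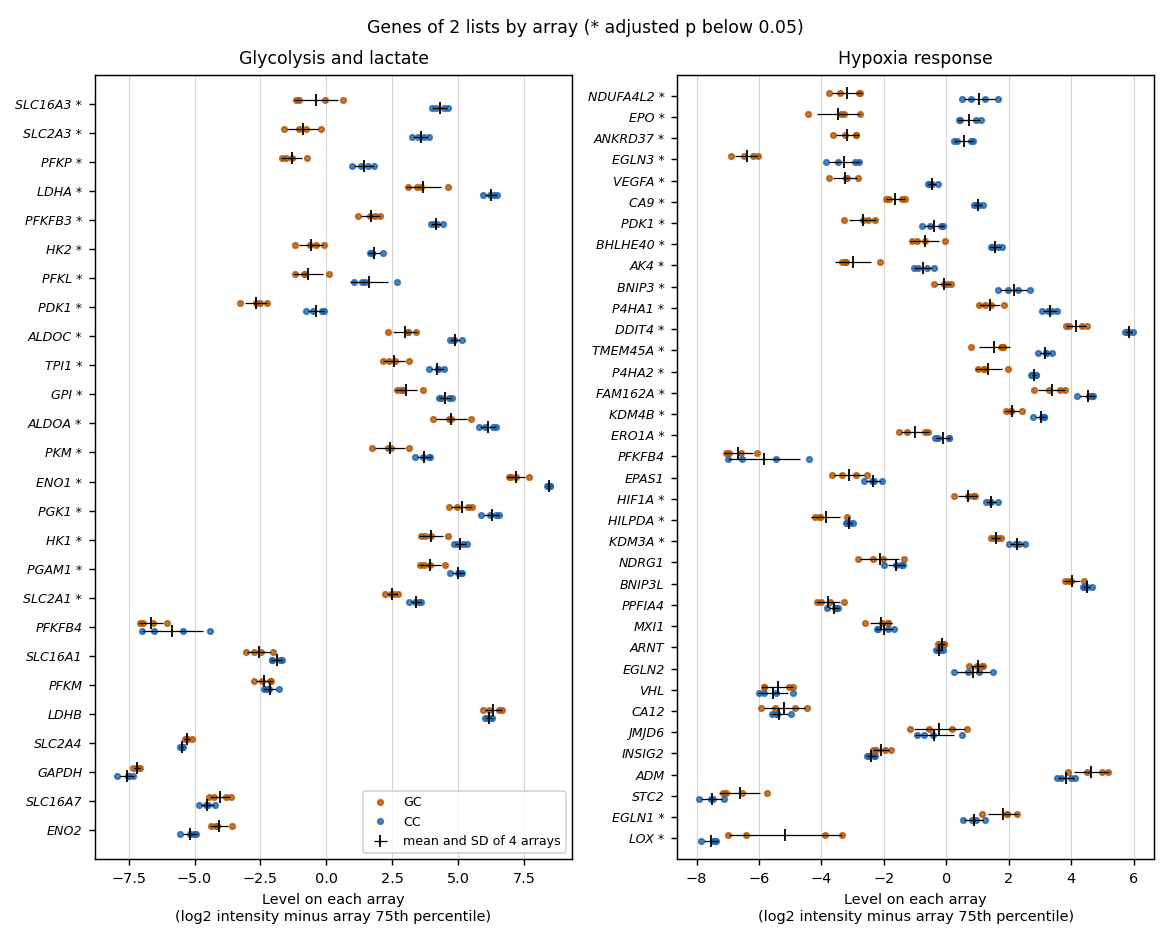
Log2 level on each GC (brown) and CC (blue) array, in log2 units relative to the array's 75th percentile, of 26 genes of glycolysis and lactate (left) and 36 genes of the hypoxia response (right), ordered by CC minus GC; black bars give the mean and SD of 4 arrays and asterisks an adjusted p below 0.05. CC lie to the right of GC for the upper 18 genes on the left, and LOX and EGLN1, the 2 starred genes at the bottom right, have lower means in CC.

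Immediate early genes are transcription factors and phosphatases that cells switch on within minutes of a stimulus. Of 30 on the array, 14 were called higher in CC, 1 in GC and 15 in neither, with a median of 0.82. Of all genes, 5.28% were higher in CC and 4.61% in GC, with a median of -0.155. FOS was at 4.13, 3.42, 2.92 and 1.95 in GC and at 5.05, 6.67, 5.89 and 6.31 in CC (2.87 ± 0.41, adjusted p = 0.000426). JUN (1.75), JUNB (2.03), EGR1 (1.92), ATF3 (1.97), IER2 (1.70), DUSP1 (1.91) and DUSP6 (1.75) were higher in CC as well. NR4A1, an orphan nuclear receptor that acts on steroidogenic genes, was between 0.34 and 1.36 in GC and between 3.03 and 3.54 in CC (2.40 ± 0.28).

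The spread of FOS and EGR1 was wide in both cell types: CC replicate 1 was the lowest CC array for both (5.05 and 4.98), and GC replicate 2 reached 4.92 for EGR1. GADD45A, a DNA damage and growth arrest gene, was the member higher in GC (by -1.70 as CC minus GC, adjusted p = 0.00479). On the first slide 0 of the list was called higher in CC and on the second 11, while the medians were 0.84 and 1.24.

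Cholesterol genes leaned the same way at a smaller size. CC are known to make cholesterol for the oocyte, which takes it up from them. Of 24 genes, 6 were higher in CC and 0 in GC (25.0%, against 9.88% of all genes), with a median of 0.44. INSIG1, the sterol-regulated brake on the pathway, was at 0.73, 0.57, 0.20 and 1.57 in GC and at 2.17, 3.13, 1.91 and 2.62 in CC, higher by 1.69 ± 0.29 (adjusted p = 0.00164). GC replicate 4 was the GC array closest to CC for this gene. The synthesis enzymes SQLE, IDI1 and LSS were higher in CC by 1.43 ± 0.27, 0.93 ± 0.27 and 0.81 ± 0.23. The count of the list was 11 without GC replicate 4, 3 without GC replicate 3, 4 or 5 without any other single array, and 2 without GC replicates 2 and 3 or without CC replicates 1 and 4.

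Steroid synthesis did not move as a group, with 13.0% of its genes called against 9.88% of all genes. Of 23 genes, 2 were higher in CC (HSD17B1 and NR4A1) and 1 in GC, against 6 and 1 without GC replicate 4, and 1 and 1 without GC replicate 2, GC replicate 3, CC replicate 2 or CC replicate 4. That one was STAR, which brings cholesterol into the mitochondrion for steroid synthesis, at -2.35, -0.09, 0.97 and 1.49 in GC and at -3.89, -3.81, -3.10 and -1.81 in CC, a difference of -3.16 ± 0.64 (adjusted p = 0.00511). GC replicate 1 lay within the CC range, and the levels in TH (2.27) and the oocyte (3.43) were above both. CYP19A1, the aromatase, was at -1.19, -1.42, -2.33 and 1.54 in GC and at 0.23, 0.52, -0.55 and 0.84 in CC, a difference of 1.11 ± 0.74 that was smaller than the spread in GC (adjusted p = 0.429). CYP11A1 (0.97), HSD3B1 (0.69) and NR5A1 (0.53) were not called either. FSHR, the receptor for follicle-stimulating hormone, was at 2.13 ± 0.44 (SD, n = 4) in GC and 2.29 ± 0.17 (SD, n = 4) in CC, and LHCGR, the LH receptor, was above background on 2 arrays of each.

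Of 37 genes of AMH, inhibin, activin and BMP signalling, 4 were higher in CC and 6 in GC (27.0%, against 9.88% of all genes). These counts were 0 and 4 without GC replicate 3, and 2 to 5 and 5 to 9 without any other single array. The ligand genes AMH and INHBB, the activin beta B chain, were higher in CC, INHBB by 1.76 ± 0.47 (adjusted p = 0.0279; lost without any single array but GC replicate 4, adjusted p from 0.05 to 0.095). INHA, the inhibin alpha chain, was at 8.59 ± 0.45 (SD, n = 4) in GC and 8.67 ± 0.11 (SD, n = 4) in CC. INHBA was at 7.45, 6.45, 6.60 and 8.63 in GC and at 8.35, 8.27, 8.35 and 8.29 in CC (1.03 ± 0.36, adjusted p = 0.0931, and 1.48 with an adjusted p of 0.0013 without GC replicate 4).

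On the receptor side, BMPR1B, a type I receptor of bone morphogenetic proteins, was at 0.02, -0.06, 0.57 and -0.23 in GC and at -2.38, -3.45, -2.69 and -2.71 in CC. The difference was -2.88 ± 0.24 (adjusted p = 4.34e-06), while BMPR1A differed by -0.12 (adjusted p = 0.661). TGFBR3, the betaglycan that binds inhibin, was lower in CC with a difference of -1.45 ± 0.23. Of the signal carriers, SMAD1, SMAD3 and SMAD4 were lower in CC (-0.60, -0.51 and -0.60) and SMAD2 higher (0.61), and CHRD, a secreted BMP antagonist, was higher in CC by 0.81.

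Genes of cumulus expansion, the hyaluronan matrix that CC build after the LH surge, were split. Of 20, 3 were higher in CC and 4 in GC (5 and 4 without GC replicate 2), 35.0% called against 9.88% of all genes. PTGS2, the prostaglandin synthase that the surge induces, was at 0.10, -0.17, 1.56 and -1.37 in GC and at -2.16, -3.05, -2.53 and -2.18 in CC (-2.51 ± 0.45, adjusted p = 0.00204). RUNX2, a transcription factor, and the prostaglandin receptor PTGER4 were lower in CC too, with differences of -2.05 and -2.26. VCAN, a hyaluronan-binding proteoglycan, and EGFR, which receives the EGF-like signal, were higher in CC by 1.24 ± 0.23 and 1.20 ± 0.19. HAS2, the hyaluronan synthase, was above background on 1 GC and 2 CC arrays, and its difference of 1.75 was absent (-0.02) with normexp background correction. PTX3 and TNFAIP6 had differences of 0.79 and 1.98 that did not pass the threshold (adjusted p = 0.486 and 0.0918), and GC replicate 2 was the highest GC array for both (0.80 and 0.48).

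Of 14 genes of meiotic arrest, 2 were higher in CC and 1, GJA5, in GC (21.4%, against 9.88% of all genes). Without GC replicate 2, CC replicate 1 or CC replicate 2, 1 gene in all was called. IMPDH2, which makes guanine nucleotides for cyclic GMP, was higher in CC by 0.80 and NPR2, the receptor of the arresting peptide, by 1.62 (above background on 1 GC and 4 CC arrays). The difference of NPR2 was 0.12 (adjusted p = 0.67) with normexp background correction, and its call was also lost without GC replicate 2, GC replicate 3, CC replicate 1 or CC replicate 2 (adjusted p from 0.051 to 0.064). NPPC, the gene of that peptide, did not pass (-0.54, adjusted p = 0.512). GJA1, the main connexin between granulosa cells, differed by -0.08 ± 0.19, with an adjusted p of 0.843.

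The WNT antagonists SFRP4 and SFRP1 were higher in CC by 4.91 ± 0.45 and 3.13 ± 0.28, and WNT11 and AXIN2, a target of WNT signalling, by 2.02 and 1.47. The Notch ligand DLL4 was between -0.87 and 0.35 in GC and between 1.97 and 2.23 in CC (2.48 ± 0.25), and HES1, a Notch target, was between -3.71 and -3.51 in GC and between -1.49 and -0.36 in CC (2.57 ± 0.30). KITLG, the ligand of the oocyte's KIT receptor, was above background on 4 GC and 1 CC arrays, with means of -4.43 and -6.27. In total, 7 of 29 genes of the KIT, Notch and WNT list were higher in CC and 2 (KITLG and WNT5A) in GC, 31.0% called against 9.88% of all genes. The GC count was 4 without GC replicate 1 or CC replicate 3, and 1 without GC replicate 2 or CC replicate 2.

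Amino acid transporters followed no single direction, with 22.7% called against 9.88% of all genes. Of 22, 3 were higher in CC and 2 in GC (2 and 1 without GC replicate 3, CC replicate 3 or CC replicate 4, and 4 and 1 without CC replicate 2). SLC38A5, a glutamine and serine transporter, was between -0.81 and 0.73 in GC and between 1.81 and 1.94 in CC (1.93 ± 0.27). SLC1A1, a glutamate carrier, was well above background on all CC arrays and on no GC array (at least 3.69-fold higher), and SLC7A11, the cystine carrier, was the opposite (at least 3.36-fold higher in GC). GCLC, the rate-limiting enzyme of glutathione synthesis, was higher in CC by 1.04 ± 0.17. The glutathione and redox list of 39 held 4 genes higher in CC and 4 in GC (20.5%, against 9.88% of all genes). It held 2 or 3 such genes in all without any 1 array other than GC replicate 4. Of 38 proteases and inhibitors, 4 were higher in CC and 3 in GC (18.4%, against 9.88% of all genes). The counts were 7 and 3 without GC replicate 4, and 3 and 5 without GC replicate 1. Among them, cathepsin L (CTSL) was higher in CC by 3.31 ± 0.32 and PLAU, urokinase, by 1.70 ± 0.31.

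Transcription factors of the follicle gave 2 of 25 genes higher in CC and 4 in GC, against 5.28% and 4.61% of all genes. The CC count was 1 without GC replicate 1, GC replicate 2, CC replicate 1 or CC replicate 2. The GC count was 2 without GC replicate 3 or CC replicate 2. GATA4, a regulator of gonadal genes, was between 2.74 and 3.26 in GC and between 3.94 and 4.54 in CC (1.25 ± 0.18, adjusted p = 0.000403). SOX4 was lower in CC, with a difference of -1.95 ± 0.36. FOXL2 was at -3.53 in GC and -2.52 in CC (adjusted p = 0.316). Proliferation genes had a median of 0.5, against -0.155 for all genes, and 10.3% were called, near the 9.88% of all genes. Of 39, 1 was higher in CC (CCND2) and 3 in GC, among them CDKN1C, a cell cycle inhibitor, by -3.74 ± 0.55 as CC minus GC. Without GC replicate 4 the counts were 13 and 2, so that this array decided how many were higher in CC, and without any other single array 0 were higher in CC and 1 to 3 in GC. Of the apoptosis regulators, 3 of 24 were lower in CC (BCL2 -2.01, BCL2L11 -1.59 and CASP6 -1.03 as CC minus GC) and 0 were higher. That share of 12.5% was near the 9.88% of all genes.

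Of 35 genes of basal lamina and extracellular matrix, 13 were higher in GC and 3 in CC (45.7%, against 9.88% of all genes). Their median was -0.77, against -0.155 for all genes. MGP, matrix Gla protein, was at 2.77, 5.29, 4.47 and 0.28 in GC and at -2.50, -4.64, -0.36 and -4.02 in CC (-6.08 ± 1.00, adjusted p = 0.00113). That SE is from the pooled spread, while the SD of MGP was 2.21 in GC, 1.90 in CC, 0.35 in TH and 1.02 in oocytes. COL1A2 and COL3A1, chains of fibrillar collagens, differed by -5.72 ± 0.88 and -4.18 ± 0.69, and FN1, fibronectin, by -2.96 ± 0.63. COL4A5, a chain of basal lamina collagen, differed by -3.24 ± 0.26. THBS1, thrombospondin, an inhibitor of vessel growth, went the other way, between 1.99 and 3.42 in GC and between 4.99 and 5.28 in CC (2.42 ± 0.28).

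These matrix genes moved with markers of the theca. All 13 had a higher mean in TH than in GC, as did 52.6% of all genes called higher in GC, against 33.9% of all genes. The list of 10 theca markers, summed on a linear scale, was 33.6, 124.5, 107.7 and 37.8 times the array's 75th percentile in GC. The sum was 29.4 to 36.7 in CC and 666.2 to 897.6 in TH. INSL3, which with CYP17A1 defines theca cells, was the largest part of the sum on every GC and CC array. Without INSL3 the sum was 12.62, 49.29, 45.25 and 13.96 in GC and 8.871 to 11.62 in CC. Both INSL3 and the sum of the other markers were thus highest on GC replicates 2 and 3. Of the 10, 4 (COL1A2, ACTA2, NR2F2 and OGN) were called higher in GC than in CC, against 4.61% of all genes. INSL3 and CYP17A1 were not called, and CYP17A1 was above background on 1 GC array and 0 CC arrays. GC replicates 2 and 3, with the largest sums, were also the highest for MGP. Without them 4 genes of the matrix list were called higher in GC (8 without GC replicate 3 alone), with a median of -0.68 against -0.77 with all arrays. Over all genes, those called higher in GC also fell, from 1039 to 378, with fewer GC arrays. Markers of other cell types moved the same way in part. All 6 endothelial genes had a lower mean in CC (median -1.04, CLDN5 called at -2.69). Only 3 of them were above background on at least 3 arrays of both cell types. CDH5 was above it on 0 arrays of either, and the 2 probes of KDR went opposite ways (-2.48 and 0.67). The summed level of the 6 was 0.430 to 1.15 in GC, 0.1845 to 0.265 in CC and 4.64 to 9.17 in TH. The 8 leukocyte markers had a median of -0.85, with CD3E called (not without CC replicate 1) and CD68 at 0.34, and sums of 2.502 to 4.26 in GC and 1.31 to 3.61 in CC. The part of RNA from theca, endothelial cells or leukocytes in these differences was not tested.

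Of the 12 genes with the largest fall in CC among those measured in both cell types, 7 had a higher mean in TH than in GC. The other 5 were MSMB, a secreted microseminoprotein, CRIPTO (TDGF1 on the array), a Nodal co-receptor, ZBTB16, PCSK1, a prohormone convertase, and VASH2. MSMB was between -1.47 and -0.03 in GC and between -6.52 and -5.04 in CC, with a level of -4.70 in TH (-5.32 ± 0.60, adjusted p = 6.11e-05). CRIPTO varied within GC, at 1.77, 1.58, -1.29 and -2.85 (-4.26 ± 0.80).

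**Figure D4:**
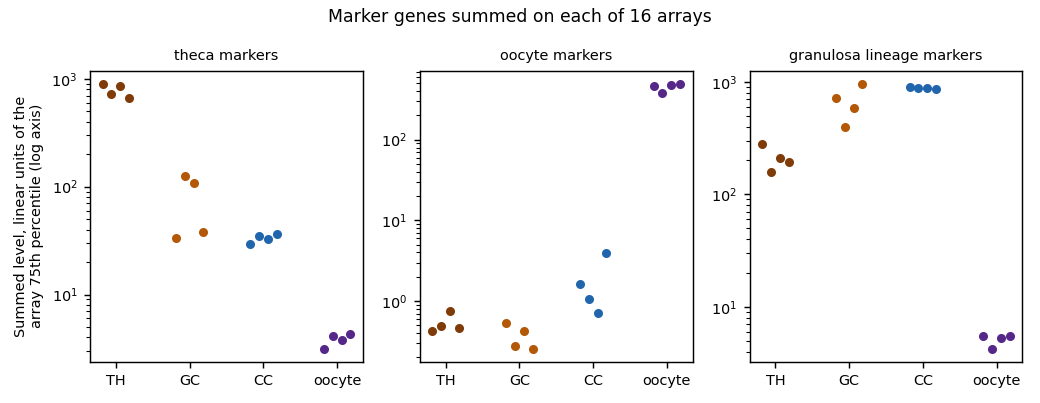
Summed linear level, in units of the array's 75th percentile on a log axis, of 10 theca, 10 oocyte and 8 granulosa lineage markers on each array of TH, GC, CC and oocytes. GC replicates 2 and 3 stand above the other GC arrays for theca markers, and all 4 CC arrays stand above the GC arrays for oocyte markers.

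Oocyte transcripts moved with CC. Of 10 oocyte markers, 7 were higher in CC and 1, DAZL, in GC, against 5.28% and 4.61% of all genes. With normexp background correction the counts were 2 and 0. Only 3 of the 10 were above background on at least 3 arrays of both cell types. The summed level of all 10, in the same units, was 1.64, 1.06, 0.717 and 3.92 in CC. It was 0.258 to 0.533 in GC and 375.5 to 491.9 in the oocyte. ZP4, a zona pellucida glycoprotein, was at -0.81, -1.08, -2.49 and 0.21 in CC, above background on 2 GC arrays, and OOSP2 (OOSP1 on the array) was at -3.54, -5.11, -4.29 and -2.32, above background on 1. CC replicate 4 was the highest for both, and CC replicates 1 and 4 had the largest sums. Among all genes called higher in CC, 31.5% had a higher mean in the oocyte than in CC, against 41% of all genes. That held for 0 of the 19 glycolysis genes, for 4 of the 20 hypoxia genes (CA9, EGLN3, HILPDA and AK4) and for 4 of the 7 genes of the KIT, Notch and WNT list called higher in CC (HES1, SFRP1, AXIN2 and DKK3). The oocyte level was 1.80 for CA9 and 1.27 for HES1. Whether oocyte RNA had a part in other genes higher in CC was not tested.

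The other genes with the largest rise in CC among those measured in both cell types were ACTA1, skeletal alpha-actin, by 5.29 ± 0.52, EXOC3L4 by 5.22 ± 0.84, DKFZP564O0823 (a name of the array's annotation), LRRC36, KRT73, a keratin, and FAM110D, by 3.82 to 4.62. ACTA1 was at 2.28, -0.01, -0.78 and 1.04 in GC and between 5.55 and 6.18 in CC. EXOC3L4 was far more spread, between -5.09 and -0.48 in GC and between 1.85 and 4.27 in CC. All 12 genes of that group had their highest mean in CC among the 4 cell types. Of genes above background in GC or CC but on no array of the other, the largest bounds were for RIPK4, a kinase (at least 12.3-fold higher in CC), and OGN, a matrix proteoglycan (at least 8.37-fold higher in GC). RIPK4 had a higher level in the oocyte (3.42) than in CC (-1.41), and OGN in TH (3.72) than in GC (-2.35).

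Of the IGF genes, IGF2 and its binding protein IGFBP6 were higher in GC (-3.15 ± 0.61 and -2.30 ± 0.32 as CC minus GC) and IGFBP4 and IGFBP3 in CC (1.48 and 1.80). In this list 2 of 19 were higher in CC and 4 in GC (31.6%, against 9.88% of all genes). IGF2 was highest on GC replicates 2 and 3 (2.79 and 1.86), and its call was lost without both (-1.90, adjusted p = 0.053). Families with little change set a background: 0 of 78 ribosomal protein genes were called in either direction, 1 of 38 genes picked by the name prefix of respiratory complex I, and 2 of 40 proteasome subunits. The 1 called was NDUFA4L2, which is in that list by its name and is described above as lowering complex I activity. HSPA1A, a stress-induced heat shock protein, was higher in GC (-1.85 ± 0.40), and HSP90B1, a chaperone of the endoplasmic reticulum, in CC (0.92 ± 0.22). Their list of 27 had 1 higher in CC and 2 in GC, a share of 11.1% that was near the 9.88% of all genes. The counts were 3 and 2 without GC replicate 4, 2 and 2 without CC replicate 1, and 0 and 2 without CC replicate 2. In that last setting HSP90B1 had an adjusted p of 0.053 (limma), against 0.063 with only GC and CC arrays. The plot of gene lists sets the count of each list beside the shares of all genes.

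**Figure D5:**
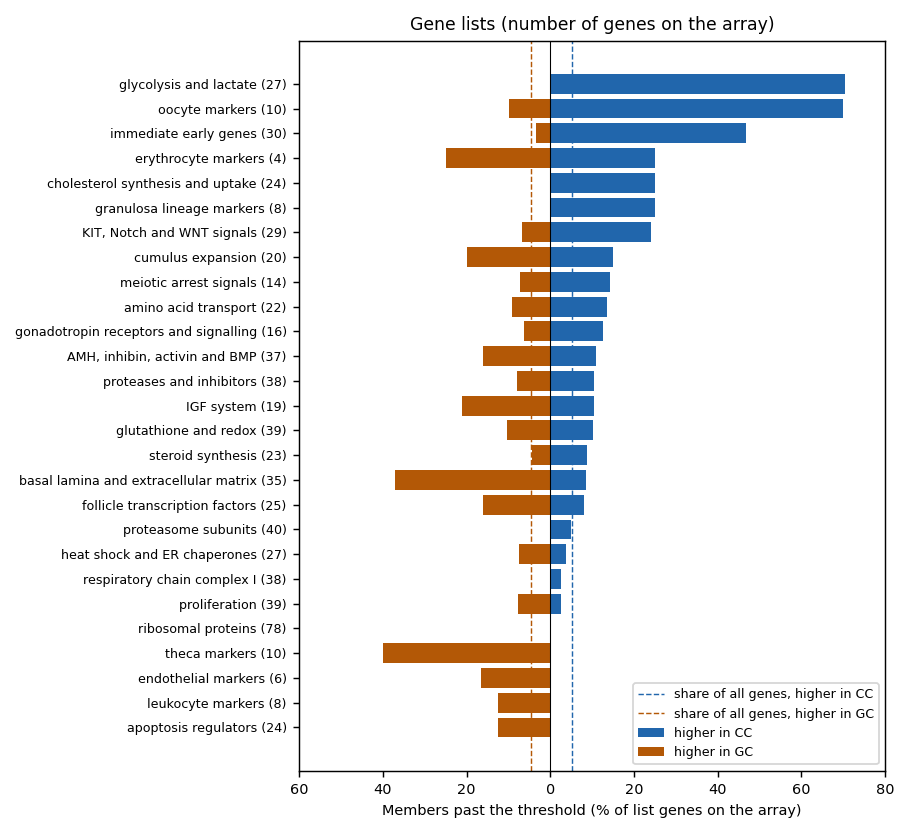
Share of each list's genes on the array (in %, numbers in brackets) that were higher in CC (blue, to the right) or in GC (brown, to the left) at an adjusted p below 0.05, with dashed lines for the shares of all 22550 genes (5.28% and 4.61%). Glycolysis and lactate reach 70.4% to the right, and ribosomal proteins have no bar.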

How the data were processed

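Expression was measured on 4 GC and 4 CC arrays, fitted with 4 TH and 4 oocyte arrays (16 in all). The authors deposited the Agilent Feature Extraction output of each array (version 10.7.3.1 per the labels), whose processed intensity has the background removed and no scaling across arrays, and a table of log2 values, which the deposited scanner files show to be log2 of the median signal centred on the array's median (within 5.0e-09). Control spots and outlier spots were left out. Log2 processed intensity minus the array's 75th percentile was summarised as the median over a gene's spots. Genes are array names without transcript suffix, with 1082 renamed by accession (RefSeq names, ARS-UCD2.0). Of 9779 unnamed probes, 734 were matched by accession.

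The R package limma 3.58.1 (functions lmFit and eBayes, R 4.3.3) gave CC minus GC, with Benjamini–Hochberg adjustment over 22550 genes and a threshold of 0.05. Where a gene was well above background on no array of the dimmer group, the bound sets the brighter mean against a floor on each array, which was the dimmest signal still above background, or the measured value if that was larger. On simulated data for this comparison and 22550 genes, 200 changed genes were recovered at 26.5% for a log2 change of 1 and 85% for 2, with 2 and 7 unchanged genes called. Figures used Python 3.11.15, pandas 2.3.3, numpy 2.4.6 and matplotlib 3.10.9.

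Named genes were the given markers, the 12 largest rises and 12 largest falls with no overlap among genes above background on at least 3 arrays of both cell types, the 5 largest bounds in each direction, the first and up to 3 most changed genes of each list, and all members of lists of up to 8 genes; other genes named were chosen after their values were seen. The members and lists were chosen with earlier results of these data known. The number of arrays limits the precision. Alternatives were other scalings, background corrections, probe summaries, filters, blocks, slides, weights, the methods' analysis of variance, and leaving out arrays. Values of 3 single genes are not reported here, though the counts of lists include them.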

Additional observations from a re-analysis of the deposited data

Results flagged for a closer look

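Among the genes named, 246 groups of 4 arrays were looked at for a single array far from the other 3, and 15 (6.1%) had one; chance gives about 1 in 20. The arrays set apart were 8 of GC and 7 of CC. All values are log2 levels.

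HSD17B1 was at 6.81 on CC replicate 2 (others 5.78 to 5.89), and GSTA5 at 0.40 on CC replicate 3 (others 1.05 to 1.18). For genes near background, FSHB was at -5.22 on GC replicate 1 (others -7.34 to -7.03), OGN at -5.44 on CC replicate 3 (others -7.63 to -7.39), TCF23 at -5.60 on CC replicate 3 (others -7.52 to -7.36), KITLG at -6.96 on CC replicate 2 (others -6.08 to -5.96), CYP17A1 at -6.30 on CC replicate 1 (others -7.34 to -7.20) and CDH5 at -7.92 on CC replicate 1 (others -7.54 to -7.47).

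On GC replicate 1, CTSL was high at -2.48 (others -3.89 to -3.65) and BCL2 low at -3.40 (others -2.68 to -2.54). On GC replicate 2, RUNX2 was high at 0.23 (others -1.67 to -1.39) and INHA low at 7.92 (others 8.77 to 8.85). FOXL2 was low on GC replicate 3 at -4.01 (others -3.41 to -3.30). On GC replicate 4, ZBTB16 was low at -1.0 (others 0.22 to 0.31) and IMPDH2 high at 3.66 (others 3.02 to 3.11).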

How the results depend on the processing

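No called gene was called in the opposite direction under any alternative. Of 3315 values of named genes under alternatives, 2985 kept their direction and side of the threshold, 315 were no longer past it (127 of them within 1 slide), 13 were newly past it and 2 reversed, both under normexp background correction (ADCY9 to -0.11, adjusted p = 0.69, and HAS2 to -0.02, adjusted p = 0.96). Against 2229 genes called (1190 higher in CC and 1039 in GC), array weights gave 3915 (1893 and 2022), the first slide alone 185 (85 and 100) and the second alone 449 (268 and 181), each slide with 2 arrays a group. The deposited table gave 629 higher in GC. The 5857 genes without overlap became 3588 under quantile normalization. Leaving out 1 array gave 1506 to 2588 in all, 867 to 1385 higher in CC and 620 to 1203 higher in GC, the last lowest without CC replicate 2 (620), GC replicate 3 (662) or CC replicate 1 (688). Chosen after seeing the data, leaving out GC replicates 2 and 3 gave 936 (558 and 378), and leaving out CC replicates 1 and 4 gave 935 (548 and 387). The cause of these shifts was not tested, beyond the smaller number of arrays. Same-numbered arrays deviated together with correlations of 0.17, 0.013, 0.208 and 0.19, against a median of -0.066 over the other pairs. Since 1 of these 4 was not over 0.1 and no label ties the numbers to an animal or day, the numbers were not taken to pair samples, and GC replicates 2 and 4 correlated best with a CC array of another number. The replicate block gave 2321 genes. Signal near background limits the fold changes of dim genes.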
